A study of Mus musculus with 6 samples.

Results

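Noncoding host transcripts of small nucleolar RNAs (snoRNAs) were followed in mouse splenic CD4+ T cells treated with a MAPK13 inhibitor. The members are 7 genes, *Gas5*, *Snhg1*, *Snhg3*, *Snhg5*, *Snhg6*, *Snhg8* and *Snhg12*. They were taken by their listed symbols, with earlier results of these data known. All 7 were found among the 35602 genes of the count table and among the 34714 genes of the tables of replicate 1, and all 7 passed the filter on low counts that left 16269 genes for testing.

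SnoRNAs guide chemical modification and processing of ribosomal and other RNAs, and most mammalian snoRNAs are cut out of the introns of a host transcript. Box C/D snoRNAs guide methylation and box H/ACA snoRNAs guide pseudouridylation, each with its own set of core proteins. The spliced exons of hosts such as *Gas5* carry no long reading frame, begin with a pyrimidine tract like that of ribosomal protein mRNAs, and are cleared by nonsense-mediated decay when they are translated, so their level depends on both transcription and decay.

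CD4+ T cells were purified from spleen, stimulated through CD3 and CD28 for 72 h and kept with MAPK13-IN-1, a small-molecule inhibitor of the kinase encoded by *Mapk13*, or with its solvent DMSO, 3 libraries per group. Replicates 2 and 3 of both groups are WT, were grown in 10% serum, and received the inhibitor at 17.1 µM or DMSO after day 1 according to the sample labels, whereas the series design has it present during the stimulation. For replicate 1 the labels give tissue, cell type and treatment only, and strain and age are not given in the labels of any library. A single inhibitor at a single dose stands for loss of kinase activity, and no library tests its action on other kinases. Poly-T beads were used for the libraries of replicates 2 and 3 and a strand-specific mRNA kit for those of replicate 1, so spliced polyadenylated hosts are read and the short snoRNAs are not.

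Replicates 2 and 3 were deposited as counts, with totals of 26874805 and 28487403 in the DMSO libraries and 33854760 and 32617702 in the MAPK13-IN-1 libraries. They are given as CPM, counts scaled to a common library size with TMM. Replicate 1 was deposited as values that sum to 405150 with DMSO and 390729 with the inhibitor and are read as FPKM (a fragment count corrected for the length of the gene and the depth of the library). That unit was inferred. With its depth unknown, this pair was left out of the test, and its log2 ratios are of FPKM plus 1. The chi-square of the 2 libraries of a group against counting noise was 1.02 (DMSO) and 2.16 (inhibitor) for the median gene. Counting noise alone would put the median of this statistic below both values. Its means were 3.08 and 9.60. Counting noise alone also gives a mean above the median, so this gap singles out no genes. Nothing states that the libraries came from separate cultures or animals, so p-values measure only the spread between these libraries, which may be technical.

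The labelled cell type was checked against marker genes. Of 8 CD4 T cell markers, 7 were listed, and they summed to 1596 and 1618 CPM of library totals in DMSO replicates 2 and 3 and to 947 and 1065 in MAPK13-IN-1 replicates 2 and 3, with *Cd5* the most abundant by the mean over the 4 libraries, as for the genes named with the other marker lists. *Cd4* itself, in TMM-scaled CPM as for the hosts, was at 275 and 276 with DMSO and 267 and 283 with the inhibitor. *Cd4* alone of the 7 did not pass the edgeR test used for the hosts (adjusted p under 0.05). The other 6 passed as lower, against 32.3% of all genes tested. B cell markers were abundant in the same libraries, 10 of 12 listed and none at 0, with sums of 1095 and 1069 CPM with DMSO and 1375 and 1386 CPM with the inhibitor and *Pax5* as the most abundant. In replicate 1 the CD4 T cell markers summed to 1024 and 934 FPKM and the B cell markers to 52.3 and 36.5 FPKM. The count libraries therefore hold B lineage transcripts that replicate 1 holds at a far lower share. In such bulk libraries fewer cells of a type and less RNA per cell cannot be told apart. The part of B cell transcripts in the results on host transcripts was not tested.

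Of the 7 host transcripts, 5 passed the test between MAPK13-IN-1 and DMSO, against 63.8% of all genes tested (edgeR, adjusted p under 0.05). *Gas5*, *Snhg5*, *Snhg8* and *Snhg12* were lower, 4 of 7 against 32.3% of all genes, and *Snhg1* was higher, 1 of 7 against 31.5%. *Snhg3* and *Snhg6* did not pass. Without DMSO replicate 3, or with library totals as the only scaling, 3 members passed and 2 of them were lower. The share of members that passed is close to that of all genes, and it does not set the hosts apart. The median log2 fold change was −0.23 over the members and 0.01 over all genes tested. In replicate 1 all 7 were lower with the inhibitor, against 45.7% of the 10448 genes that reached 1 FPKM in each of the pair, with a median log2 ratio of −0.86 beside 0.05 over those genes. The number of hosts that were lower thus differed between the kinds of library, and that difference was not tested.

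**Figure D1:**
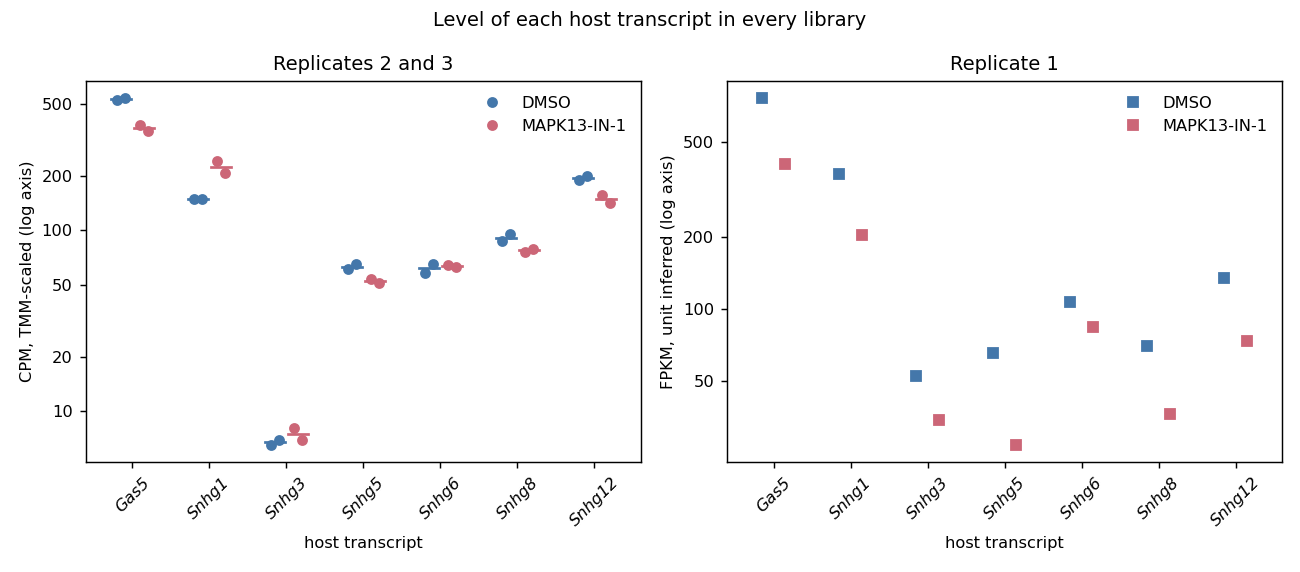
Level of each host transcript in every library, as TMM-scaled CPM of replicates 2 and 3 (left, points are libraries and lines are means of 2) and as inferred FPKM of replicate 1 (right, 1 library per group), both on log axes. *Snhg1* lies higher with MAPK13-IN-1 on the left and lower on the right, while *Gas5* lies lower on both sides.

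*Gas5*, host of box C/D snoRNAs and known as a transcript that accumulates in growth-arrested cells, was counted 13459 and 14526 times in DMSO replicates 2 and 3 and 13442 and 11969 times in MAPK13-IN-1 replicates 2 and 3. These counts correspond to 522 and 534 CPM with DMSO and to 379 and 353 CPM with the inhibitor. Both inhibitor libraries lay below both DMSO libraries. The mean fell from 528 ± 8.62 to 366 ± 18.0 CPM (SD, n = 2), and edgeR gave −0.53 on the log2 scale with a standard error of 0.0540 and an adjusted p of 1.29e-05. Replicate 1 was in the same direction, from 764 FPKM (DMSO) to 404 FPKM (inhibitor). *Gas5* had the highest CPM of the 7 and stood above 98.3% of all genes tested in average CPM.

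*Snhg1*, host of the box C/D snoRNA *Snord22* and its neighbours, moved the other way in the counts. It was at 149 and 149 CPM in DMSO replicates 2 and 3 and at 241 and 206 CPM in MAPK13-IN-1 replicates 2 and 3. Both inhibitor libraries lay above both DMSO libraries, and replicate 2 lay above replicate 3 among them. The mean rose from 149 ± 0.179 to 223 ± 24.9 CPM (SD, n = 2), and edgeR gave 0.58 on the log2 scale with a standard error of 0.0741 and an adjusted p of 6.35e-05. Replicate 1 went from 367 to 204 FPKM, a log2 ratio of −0.85, so the direction of *Snhg1* differed between the kinds of library. The kinds of library differ in kit and in the level of B cell markers, and the labels of replicate 1 give no timing of the inhibitor. The part of each in that difference was not tested.

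The ratio of *Snhg1* to *Gas5* within a library does not depend on how libraries are scaled, and shows a change of one relative to the other only. *Snhg1* had 0.286 and 0.280 counts per *Gas5* count in the DMSO libraries and 0.636 and 0.582 in the MAPK13-IN-1 libraries. In replicate 1 this ratio of FPKM was 0.481 with DMSO and 0.504 with the inhibitor, nearly level. Within the summed counts of the 7 members, *Gas5* took 48.7% and 48.0% in the DMSO libraries and 38.8% and 39.3% in the inhibitor libraries, while *Snhg1* went from 13.9% and 13.4% to 24.6% and 22.9%. The summed counts of the 7 were 0.103% and 0.106% of all counts with DMSO and 0.102% and 0.0934% with the inhibitor.

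*Snhg5*, host of 2 annotated box C/D snoRNA genes, was at 60.9 and 64.7 CPM in DMSO replicates 2 and 3 and at 53.4 and 51.2 CPM in MAPK13-IN-1 replicates 2 and 3. The groups did not overlap, although the distance between them was small. The mean fell from 62.8 ± 2.66 to 52.3 ± 1.55 CPM (SD, n = 2), and edgeR gave −0.26 on the log2 scale with a standard error of 0.0713 and an adjusted p of 0.00800. Without DMSO replicate 3 the call was lost, with a log2 fold change of −0.23 (adjusted p = 0.114 from edgeR), within an adjusted p of 9.17e-05 to 0.115 over the alternatives. In replicate 1 the values were 65.4 and 26.9 FPKM, and the log2 ratio of −1.25 was the lowest of the 7 there.

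*Snhg6*, host of *Snord87*, was level in the counts. It was at 58.1 and 64.6 CPM in DMSO replicates 2 and 3 and at 64.4 and 62.6 CPM in MAPK13-IN-1 replicates 2 and 3. The groups overlapped, and the difference of 0.05 on the log2 scale (edgeR, standard error 0.0744, adjusted p 0.574) did not exceed the spread between replicates. Without DMSO replicate 2 its sign turned (−0.037). In replicate 1 it went from 107 to 84.0 FPKM, the ratio closest to 0 among the members. Its span shares positions with *Mcmdc2*, and without a statement that strand was used in counting, reads of overlapping genes cannot be told apart.

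*Snhg3*, host of the box H/ACA snoRNAs *Snora73a* and *Snora73b*, had the lowest CPM of the 7 in the count libraries. It had 168 and 189 counts in DMSO replicates 2 and 3 and 285 and 236 counts in MAPK13-IN-1 replicates 2 and 3, or 6.52 and 6.95 CPM against 8.03 and 6.96 CPM. MAPK13-IN-1 replicate 3 and DMSO replicate 3 were nearly equal. The difference by edgeR was 0.16 on the log2 scale, with a standard error of 0.149 and an adjusted p of 0.381. It was 0.049 without MAPK13-IN-1 replicate 2 and 0.25 without MAPK13-IN-1 replicate 3. In replicate 1 it was at 52.4 and 34.3 FPKM, so relative to the other hosts *Snhg3* was far higher in those libraries.

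*Snhg8*, host of the box H/ACA snoRNA *Snora24*, was at 86.8 and 94.6 CPM in DMSO replicates 2 and 3 and at 76.1 and 78.4 CPM in MAPK13-IN-1 replicates 2 and 3. The inhibitor libraries lay below the DMSO libraries and DMSO replicate 2 was the nearest to them. The mean fell from 90.7 ± 5.53 to 77.2 ± 1.59 CPM (SD, n = 2), and edgeR gave −0.23 on the log2 scale with a standard error of 0.0678 and an adjusted p of 0.0121. This call was lost without DMSO replicate 3 (−0.18, adjusted p = 0.195 from edgeR) and with upper-quartile scaling (−0.15, adjusted p = 0.0737 from edgeR), the adjusted p running from 6.02e-05 to 0.195 over the alternatives. Replicate 1 went from 69.9 to 36.2 FPKM.

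*Snhg12* carries snoRNAs of both classes, *Snora16a*, *Snora44*, *Snora61* and *Snord99*. It was at 188 and 198 CPM in DMSO replicates 2 and 3 and at 156 and 141 CPM in MAPK13-IN-1 replicates 2 and 3. The groups were well separated, second to *Gas5* among the hosts that fell. The mean fell from 193 ± 6.99 to 149 ± 10.0 CPM (SD, n = 2), and edgeR gave −0.38 on the log2 scale with a standard error of 0.0645 and an adjusted p of 0.000466. In replicate 1 it went from 135 to 73.5 FPKM.

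**Figure D2:**
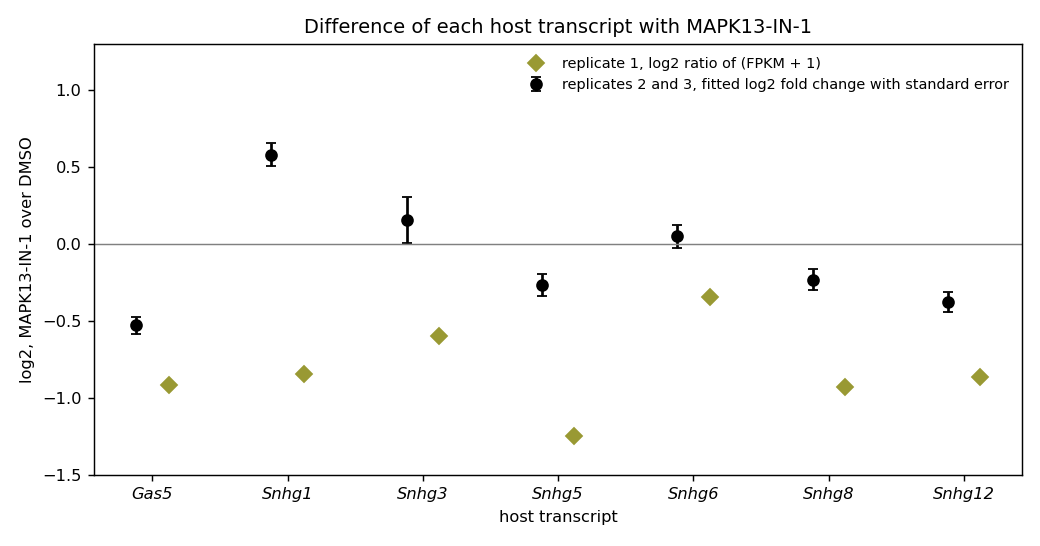
Difference of each host transcript between MAPK13-IN-1 and DMSO on the log2 scale, as the fitted fold change of replicates 2 and 3 with its standard error (circles, n = 2 per group) and as the log2 ratio of FPKM plus 1 in replicate 1 (diamonds, 1 library per group, no error). All 7 diamonds lie below 0, while the circle of *Snhg1* lies at 0.58 and those of *Snhg3* and *Snhg6* lie within 0.16 of 0.

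The calls of *Snhg5* and *Snhg8* also depended on the scaling. With library totals alone the median of all genes moved up by 0.13 on the log2 scale, and *Snhg5* (−0.14) and *Snhg8* (−0.11) no longer passed. Relative to that median their log2 fold changes were −0.28 and −0.24 and those of *Gas5* and *Snhg1* were −0.54 and 0.57, which equals TMM by construction, as this scaling moves all genes alike. With DESeq2, whose median is taken over more low genes, the changes relative to it were −0.42 for *Snhg5*, −0.39 for *Snhg8*, −0.69 for *Gas5* and 0.42 for *Snhg1*, and *Snhg3* (−0.0028) and *Snhg6* (−0.11) turned below it. No scaling turned the direction of a member relative to 0.

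To compare levels of different hosts by length, CPM were divided by that of the longest annotated spliced transcript of each (528 bases for *Snhg8* to 1538 bases for *Snhg12*). In DMSO replicates 2 and 3 the mean was 794 CPM per kilobase for *Gas5*, followed by *Snhg1* (210), *Snhg8* (172), *Snhg12* (126), *Snhg6* (75.2), *Snhg5* (62.6) and *Snhg3* (11.6). The order was the same with the inhibitor, and the libraries of neighbours in it did not overlap within either group. FPKM of DMSO replicate 1 placed *Gas5*, *Snhg1*, *Snhg12*, *Snhg6*, *Snhg8*, *Snhg5* and *Snhg3* from high to low, and with the inhibitor *Snhg6* stood above *Snhg12* and *Snhg3* above *Snhg5*. These orders rest on the length taken for each host, several of which have many isoforms, and no other length was tried.

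By position, the members lie on 5 chromosomes of the GRCm38.p6 build. *Gas5* spans chr1:161034601-161038539 on the plus strand with 8 annotated snoRNA genes inside it, and *Snhg1* spans chr19:8723487-8726326 on the plus strand with 8. *Snhg3* lies at chr4:132351933-132353686 on the minus strand and *Snhg12* at chr4:132308678-132311024 on the plus strand. *Snhg5* is at chr9:88521052-88522897, *Snhg6* at chr1:9942025-9944118 and *Snhg8* at chr3:123507552-123508336, all on the minus strand. RefSeq annotates 26 snoRNA genes inside the 7 spans, and 0 of their symbols have a row in the count table used, so no snoRNA level is given. Host and product can differ, because the host's exons decay on their own.

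**Figure D3:**
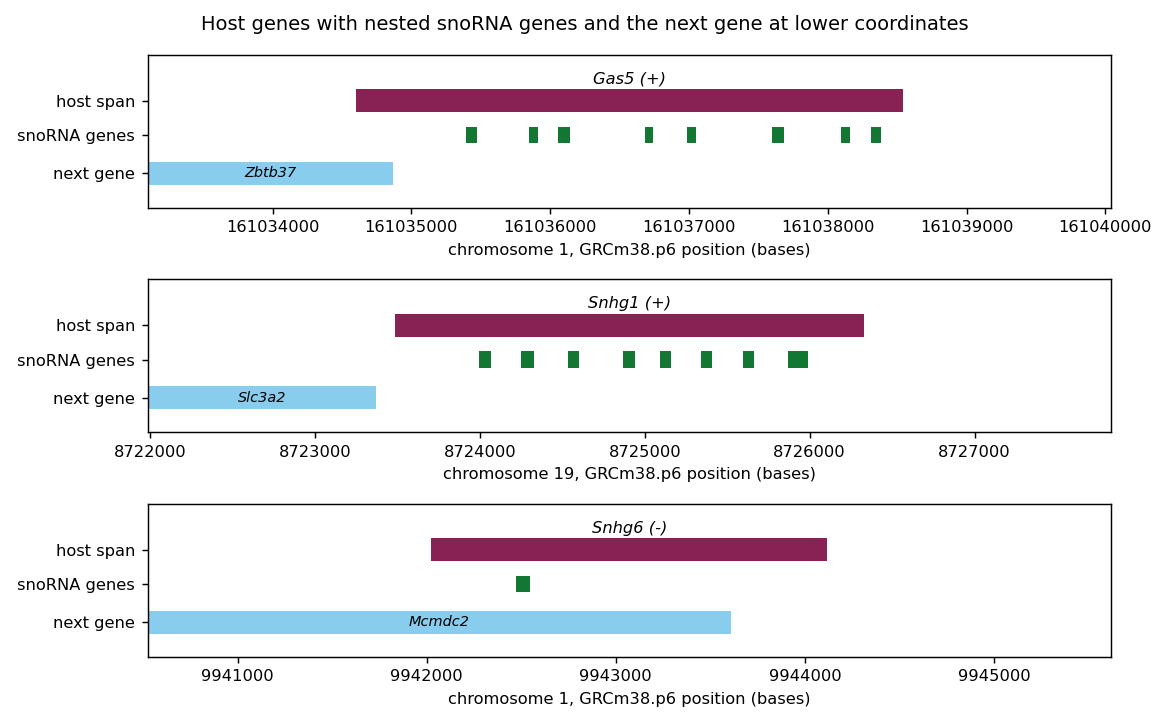
Map of 3 host genes in GRCm38.p6 coordinates (x axes, bases), with the host span (top bar, strand in parentheses), the snoRNA genes annotated inside it (middle) and the next annotated gene on the side of lower coordinates (bottom, cut at the plot's edge). *Zbtb37* shares positions with *Gas5*, *Mcmdc2* shares positions with *Snhg6*, and 117 bases separate *Slc3a2* from *Snhg1*.

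The next genes on the chromosome did not follow their host in every case. *Slc3a2*, which encodes the heavy chain of amino acid transporters and whose span lies 117 bases from the annotated start of *Snhg1*, was at 378 and 371 CPM with DMSO and 206 and 200 CPM with the inhibitor. It fell by edgeR (−0.88, standard error 0.0527, adjusted p 3.53e-07) where *Snhg1* rose, and in replicate 1 both were lower (126 to 82.1 FPKM for *Slc3a2*). *Wdr74*, on the other side of *Snhg1*, also fell (−0.56). These are 2 adjacent genes with opposite differences in the same libraries.

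*Zbtb37* (−0.58) overlaps *Gas5* by 264 bases and fell with it, with the limit on overlapping genes given for *Snhg6*. *Syncrip* beside *Snhg5* (−0.51) and *Trnau1ap* beside *Snhg12* (−0.59) fell as their hosts did. In replicate 1 *Syncrip* was lower too (43.5 to 33.7 FPKM), but *Trnau1ap* was higher (24.7 to 26.3 FPKM). *Rcc1* fell (−0.60) and *Phactr4* rose (0.61) on the sides of *Snhg3*, which did not pass. Both were lower in replicate 1 (55.5 to 25.4 FPKM for *Rcc1*, 3.99 to 3.52 FPKM for *Phactr4*). *Mcmdc2*, which overlaps *Snhg6* by 1582 bases, had 3 and 4 counts with DMSO and 60 and 52 counts with the inhibitor. It passed (adjusted p = 5.09e-05 from edgeR), a difference that rests on few counts, and was lower in replicate 1 (1.48 to 1.17 FPKM). *Prss12* beside *Snhg8* (−0.09, but 0.057 without DMSO replicate 3 and 0.032 with library totals) and *Rab42* beside *Snhg12* (−0.36, but −0.81 without MAPK13-IN-1 replicate 3 and −0.019 without MAPK13-IN-1 replicate 2) did not pass, *Tcf24* was too low to be tested, and *Gm22985* and *Gm9369* have no row in the count table used.

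The gap between *Slc3a2* and *Snhg1* is printed because the genes on its sides differed in direction. It covers chr19:8723370-8723486 and is given on the plus strand, from RefSeq in build GRCm38.p6.
Slc3a2 to Snhg1: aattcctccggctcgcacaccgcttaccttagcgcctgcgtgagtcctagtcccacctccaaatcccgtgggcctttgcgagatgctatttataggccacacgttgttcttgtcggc

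Promoter windows of 6 of the 7 members were matched in the RefSeq table of starts, 7 windows in all since *Gas5* has 2 starts. *Snhg6* was not matched. The start is where a terminal pyrimidine tract would lie, so 20 bases before and 30 bases from each start are shown, on the strand of the gene. Capitals mark the longest run of C and T inside the 10 bases before and the 10 bases from the start. Runs that cross the edge of that stretch were counted only for their part inside it, so the run of *Snhg1* and one of *Snhg5* go on beyond what was counted.
Gas5, upstream start, chr1:161034581-161034630, plus strand: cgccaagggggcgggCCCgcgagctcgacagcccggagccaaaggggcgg
Gas5, downstream start, chr1:161035146-161035195, plus strand: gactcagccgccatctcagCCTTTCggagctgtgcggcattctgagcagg
Snhg1, chr19:8723467-8723516, plus strand: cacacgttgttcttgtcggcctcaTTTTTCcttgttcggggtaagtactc
Snhg3, chr4:132353657-132353706, minus strand: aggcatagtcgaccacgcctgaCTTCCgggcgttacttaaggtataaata
Snhg5, chr9:88522868-88522917, minus strand: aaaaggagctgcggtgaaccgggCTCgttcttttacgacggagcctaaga
Snhg8, chr3:123508307-123508356, minus strand: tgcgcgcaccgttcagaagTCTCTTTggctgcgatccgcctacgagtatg
Snhg12, chr4:132308658-132308707, plus strand: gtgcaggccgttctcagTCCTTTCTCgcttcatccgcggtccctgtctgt

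The run was 9 bases in *Snhg12*, a length reached by 4.51% of all 32851 promoter windows, and 7 bases in *Snhg8* (12.2%). It was 6 bases at the downstream *Gas5* start and in *Snhg1* (20.2%), 5 in *Snhg3* (34.4%) and 3 in *Snhg5* and at the upstream *Gas5* start (77.4%). All windows were counted in the same way, so these lengths do not give the full length of a tract.

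A set of 3 motifs was searched on both strands in the 300-base windows, chosen after the windows had been seen. TGACGTCA, the letters of a CREB/ATF site, occurred in 1.79% of all windows and in 1 of the 7 of the members, that of the downstream *Gas5* start, at chr1:161035120-161035127. TGATGCAA, the letters of a C/EBP-ATF response element, occurred in 0.895% of all windows and in 0 of the 7, and CACGTG, an E-box, in 7.15% and in 0. Only 1 of the 3 had a match in the windows of the members, so no 2 could overlap there. The *Gas5* stretch is shown with the matching letters in capitals, chr1:161035100-161035185 on the plus strand.
Gas5 downstream start: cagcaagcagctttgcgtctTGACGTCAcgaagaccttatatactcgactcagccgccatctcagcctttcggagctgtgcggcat

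Other noncoding hosts of snoRNAs differed in direction from most of the members. Of 14 listed, 12 were tested, 10 were higher and 2 were lower, with a median log2 fold change of 0.56. The counts of this and the following lists stand against 31.5% higher and 32.3% lower among all genes tested. *Snhg15* rose from 45.9 ± 0.543 to 76.3 ± 0.623 CPM (SD, n = 2), by edgeR a log2 fold change of 0.73 at an adjusted p of 6.00e-06, and was also higher in replicate 1 (50.1 to 107 FPKM). *Dancr* rose (1.12) and *Snhg17* fell (−0.43). Without DMSO replicate 3, and with library totals, upper-quartile scaling or DESeq2, 1 was lower. Without MAPK13-IN-1 replicate 2, 6 of them were higher, and *Snhg1* was at 0.46. In replicate 1, 8 of the 10 that reached 1 FPKM in each library were lower, against 45.7% of all such genes, so this group too differed between the kinds of library, as *Snhg1* did.

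Transcripts of the proteins that bind the snoRNAs were mostly lower. Of the 4 box C/D core genes, *Nop58* (−0.57), *Fbl*, the methyltransferase (−0.35), and *Nop56* (−0.47) fell and *Snu13* (−0.13) did not pass, with a median of −0.41. Without MAPK13-IN-1 replicate 2, *Snu13* passed by edgeR at −0.15 (adjusted p 0.0341, within 0.0341 to 0.999 over the alternatives). All 4 box H/ACA core genes fell, *Nhp2* (−1.14), *Gar1* (−1.06), *Dkc1*, the pseudouridine synthase (−0.90), and *Nop10* (−0.53), with a median of −0.98. *Nhp2* was the exception in replicate 1, at 68.3 and 77.1 FPKM. Of 12 assembly factors, 5 were lower and 2 were higher (median −0.17), with *Nolc1* (−0.91), *Pih1d1* (−1.15) and *Ruvbl2* (−0.55) among those that fell, and in replicate 1 10 of the 12 were lower (median −0.31). In the counts *Snhg1* and the 3 box C/D core genes that passed thus differed in direction, whereas in replicate 1 *Snhg1* and all 4 core genes were lower.

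Decay and translation genes were compared because they bear on the clearance of spliced hosts. Of 17 nonsense-mediated decay factors 10 were lower and 5 were higher (median −0.27), or 3 higher without either DMSO replicate or with DESeq2. *Nbas* (−1.10), *Dhx34* (−1.21) and *Eif4a3* (−0.66) had the smallest p. Of 11 coding transcripts known as targets of this decay, 7 were lower and 3 were higher (median −0.28), *Ddit3* (−1.81) and *Atf4* (−0.99) falling and *Gadd45b* rising (1.60). Most of these targets thus moved as *Gas5* did and a few as *Snhg1* did. In replicate 1, 14 of the 17 factors (median −0.26) and 8 of the 11 targets (median −0.57) were lower.

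Genes known to share a pyrimidine start were compared in 2 lists. Of 79 cytosolic ribosomal protein genes 57 were lower and 4 were higher, with a median of −0.20, with *Rps12* (−0.71) and *Rpl36a* (−0.68) among those that fell. With library totals 30 were lower and 9 higher, with upper-quartile scaling 7 were higher, and without DMSO replicate 2 or 3 the number higher was 1 or 2. These genes have near-identical copies between which counting could split reads. Of 17 other genes of this kind 6 were lower and 5 were higher (median 0.02), with *Eef2* (−0.84), *Eef1a1* (−0.52) and *Tpt1* (−0.43) falling, or 3 higher without DMSO replicate 3, 8 with upper-quartile scaling and 9 with library totals. Their median was −0.02 without DMSO replicate 2. In replicate 1, 65 of the 79 (median −0.18) and 13 of the 17 (median −0.25) were lower, but *Rps12* (893 to 1169 FPKM) and *Tpt1* (2227 to 2375 FPKM) were higher. Of 21 protein-coding snoRNA hosts 15 were lower and 4 were higher (median −0.31), or 2 higher without either DMSO replicate, with *Rps12* and *Eef2* again among those that fell. Most protein-coding hosts were thus lower, as *Gas5* was, and 4 were higher, as *Snhg1* was, and in replicate 1 16 of the 21 were lower (median −0.25).

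*Gas5* RNA is known to bind the glucocorticoid receptor, and 8 genes of that receptor and its induced genes were tested. Of these 3 were higher and 4 were lower (median −0.14), *Tsc22d3* rising (1.47) and *Klf9* (−1.86) and *Fkbp5* (−0.80) falling. In replicate 1, 2 of the 7 with at least 1 FPKM in each library were lower (median 0.28), and *Tsc22d3* (−0.04), *Klf9* (0.11) and *Fkbp5* (−0.10) had ratios near 0. Of 14 proliferation genes 13 were lower and 0 were higher (median −0.80), among them *Pcna* (−1.04), *Rrm2* (−1.30) and *Mcm2* (−1.07), and all 14 were lower in replicate 1 too. Without MAPK13-IN-1 replicate 2, 1 of the 14 was higher. Of 16 genes of RNA polymerase I and ribosome biogenesis 9 were lower and 0 were higher (median −0.25), with *Ubtf* (−1.01), *Bop1* (−1.05) and *Imp3* (−0.71) the first. In replicate 1, 11 of the 16 were lower (median −0.31), but *Bop1* was higher (28.4 to 32.6 FPKM). The fall of *Gas5* thus stood beside lower proliferation genes in both kinds of library.

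The mean profile of the members was nearly flat. The 5 genes closest to it by Euclidean distance of centred log2 CPM over 4 libraries were *Snrpc* (distance 0.0188), *Zfp91* (0.0214), *Ddi2* (0.0254), *Reep3* (0.0272) and *Mbtps1* (0.0298). These 5 were chosen in the same libraries for closeness to a nearly flat mean, so small changes follow from the choice. The members themselves lay at distances of 0.157 (*Snhg6*) to 0.672 (*Snhg1*) from that mean. None of the 5 passed the test, with log2 fold changes of −0.08, −0.08, −0.10, −0.09 and −0.11. With library totals all 5 turned to slightly above 0, as that scaling moves all genes up by about the same amount. *Zfp91*, *Ddi2* and *Mbtps1* passed as lower without MAPK13-IN-1 replicate 2 (−0.13, −0.16 and −0.16). Among the members *Snhg5* and *Snhg8* were the closest pair (distance 0.0834) and *Gas5* and *Snhg1* the farthest (1.11).

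Markers of other cells moved beside these results. Erythroid markers, 8 of 8 listed, summed to 7.52 and 7.20 CPM with DMSO and 94.4 and 67.1 CPM with the inhibitor, *Hbb-bs* being the most abundant. Macrophage and monocyte markers (7 of 7, most abundant *Cd68*) summed to 13.1 and 11.4 against 44.1 and 36.5 CPM, and dendritic cell markers (5 of 5, most abundant *Zbtb46*) to 18.4 and 18.6 against 61.7 and 51.1 CPM. CD8 T cell markers (2 of 2, *Cd8b1*) summed to 11.2 and 10.4 against 5.76 and 8.16 CPM. NK cell markers (4 of 4, *Eomes*) stayed between 1.38 and 2.18 CPM. In replicate 1 CD8 T cell markers went from 3.49 to 8.39 FPKM, NK cell markers from 0.600 to 4.35, macrophage and monocyte markers from 2.94 to 9.13, dendritic cell markers from 3.36 to 14.6 and erythroid markers from 0.931 to 1.94 FPKM, while neutrophil markers went from 0.656 to 0.425 and mast cell and basophil markers from 0.0319 to 0.0709 FPKM. Neutrophil markers (6 of 6, *Mpo*) summed to 0.223 and 0.211 against 0.650 and 0.920 CPM, and mast cell and basophil markers (5 of 5, *Ms4a2*) to 0.521 and 0.421 against 0.945 and 1.13 CPM, with 3 and 2 of their genes at 3 counts or fewer in each library. *Mpo* and *Ms4a2* passed as higher, on few counts. The part of all these markers in the differences of *Snhg1*, *Gas5* and the other hosts was not tested.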

How the data were processed

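The authors deposited unnormalized counts by gene for replicates 2 and 3. The submitters' processing notes list fastp 0.21.0, HISAT2 2.1.0, StringTie 2.1.5 and DESeq2 1.30.1 without stating their roles, and the annotation and use of strand are not given in the sources used here. For replicate 1 the authors deposited 1 normalized value per gene, read here as FPKM, a unit they do not name. Across 10225 genes the log2 ratio of these values to CPM fell with log2 exon length with a slope of −0.73, as a unit scaled by length would. Counts were tested in R 4.3.3 with edgeR 4.0.16 (filterByExpr defaults, minimum count 10 and minimum total 15, TMM, quasi-likelihood test, Benjamini-Hochberg adjustment over 16269 genes), 2 libraries against 2 with no covariate. TMM factors were 0.960 and 0.955 for DMSO and 1.05 and 1.04 for MAPK13-IN-1. A count of 3, the limit that a count of 0 allows, was worth 0.0845 to 0.116 CPM, which covers counting error only. Pair ratios used a pseudocount of 1, which understates the change of low genes. Marker sums used library totals. Alternatives were RLE, upper-quartile and total scaling, no filter, at least 10 counts in every library, DESeq2 1.42.0, a block for replicate number, omission of each library in turn, and for replicate 1 a pseudocount of 0.1, median scaling and no filter. Named genes were all members, at most 3 genes with the smallest p of each list (all of lists of 4), the next gene on each side, and the 5 genes closest to the members' mean profile with an average log2 CPM of at least 5. Of these, 2 genes are not reported here. Genes and snoRNAs were placed with RefSeq (GRCm38.p6), and strands and lengths came from GENCODE. The members and lists were chosen with earlier results of these data known.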

Additional observations from a re-analysis of the deposited data

How the results depend on the processing

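The directions of *Gas5* (−0.58 to −0.40), *Snhg1* (0.46 to 0.71) and *Snhg12* (−0.45 to −0.25) and their calls held under all 11 alternatives to the fit of the counts. With library totals alone 3 members passed and 2 were lower, since this scaling moved the median of all genes up by 0.13. Each fit with a library left out tests fewer libraries and assumes that the lone library of its group varies like the others. Without DMSO replicate 3 *Snhg5* was at −0.23 and *Snhg8* at −0.18, against −0.32 and −0.31 without DMSO replicate 2. The reason for this gap was not tested. With a library left out *Snhg6* ranged from −0.037 to 0.12 and *Prss12* from −0.24 to 0.057, and the cause was not tested. With library totals *Prss12* was at 0.032, *Snrpc* and *Zfp91* were at 0.041, *Ddi2* at 0.028, *Reep3* at 0.035 and *Mbtps1* at 0.013, since values that started within that shift of 0 cross it. Over 58 genes chosen by the naming rule and 637 gene and setting combinations, 620 kept direction and side of the threshold, 5 lost the call, 4 gained it and 8 turned in sign, while *Mcmdc2* had no value with at least 10 counts in every library. Of 396 list values, 327 stayed within the spread or within 1.5 times the count and 69 moved further. The median of all genes also moved by 0.15 without a filter and by 0.16 with DESeq2, which test more low genes. Replicate numbers were not shown to pair the libraries, as only 2 numbers are shared and the correlation of same-numbered deviations across genes was 0.0050, and with the replicate block 5 members and 10645 genes passed. In replicate 1 the 7 ratios kept their sign with both alternatives and moved by less than 0.1, a limit set for want of replicates, and its unknown depth leaves no interval.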
